A study of Rattus norvegicus with 8 samples.

Results

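The ribosome biogenesis genes of rat hippocampus were described here, with the question whether the other nucleolar genes followed Fbl. Fbl encodes fibrillarin, the nucleolar enzyme that methylates ribose in ribosomal RNA. Members were all genes whose deposited annotation lists the KEGG pathway rno03008, ribosome biogenesis in eukaryotes, and there were 78 of them among 22601 genes. Of these, 71 had a mean of at least 0.1 FPKM (a read abundance scaled for transcript length and library size) over the 8 libraries and could be tested. The pathway was chosen by the FPKM of Fbl, which earlier results of these data had shown to be higher in PTZ and lower in Q808. The values of Fbl are therefore given as a description with no test, and the tests concern the other 70 genes. Of these 70, 0 were called by limma in PTZ vs. Con., in Q808 vs. PTZ or in Q808 vs. Con., where 2.53%, 1.92% and 3.46% of all genes tested were. The members closest to Fbl across libraries were Nop58, Snu13 and Nop56, which share a particle with it. This is a description that uses the values of Fbl, with no test. By correlation they ranked 105, 173 and 199 of 15592 genes, so many genes outside the pathway were closer.

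The libraries came from Wistar rats that weighed 180 to 220 g when purchased, with 1 library of bilateral hippocampus per rat. The PTZ and Q808 groups were kindled with pentylenetetrazole, a convulsant that blocks GABA-A receptors, at 35 mg/kg into the peritoneum every 48 h over 28 days, 14 injections in all, with 60 mg/kg on the last day. The Con. group (n = 3) received saline instead. For a further 28 days the Q808 group (n = 2) received the candidate anticonvulsant Q808 by gavage at 30 mg/kg a day, and the Con. and PTZ (n = 3) groups received its solvent. The PTZ and Q808 rats were given a final sub-convulsive PTZ dose on the day after the last gavage and were killed after scoring, so both groups carried the kindling and a recent PTZ dose. Rats were housed together in cages, and bulk tissue cannot tell fewer cells of a type from less RNA per cell.

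A ribosome is built in the nucleolus, where RNA polymerase I transcribes the ribosomal RNA precursor. Small nucleolar ribonucleoproteins modify this precursor, the box C/D class by ribose methylation and the box H/ACA class by pseudouridylation, while a large processome folds and cleaves it. Nucleases trim the pieces, GTPases and AAA ATPases release assembly factors, and the subunits leave through nuclear pores to mature in the cytosol. The libraries were made from RNA captured by its poly-A tail, so the protein-coding messages of this machinery were measured, and the ribosomal and small nucleolar RNAs were not analysed here.

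The libraries differed in markers of brain regions. Summed FPKM of 7 striatum markers lay between 725 and 1501 in Con.-3, PTZ-3 and Q808-1 while the other 5 libraries had 52.3 to 68.9. In the same 3 libraries the mean log2 level of 7 dentate granule cell markers was 0.40 to 0.49, against 1.38 to 1.85 elsewhere, and that of 6 CA pyramidal markers was 2.96 to 3.57, against 4.70 to 4.92. Mean log2 levels of 8 oligodendrocyte markers were 8.49 to 9.31 in these 3 libraries and 7.14 to 7.84 in the other 5. None of these markers was at 0 in every library. The 3 libraries, 1 in each group, are called striatum-rich below, and values within each set of libraries are given where they bear on a result.

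Most members were expressed at a moderate and even level. The median over the 71 tested members was 10.8 FPKM, against 6.89 over the 15593 genes tested, with 40 members at or above 10 FPKM, 29 between 1 and 10, and 2 below 1. The highest mean levels were those of Ran, the GTPase that drives nuclear transport (101 FPKM), Snu13 (80.3 FPKM) and Nop10 (75.2 FPKM). The lowest were those of Rexo5, an RNA exonuclease (0.140 FPKM), Heatr1, a subunit of the early-binding t-UTP complex (0.256 FPKM), and Nhp2 (1.92 FPKM). Between the lowest and the highest of the 8 libraries, the level of a member other than Fbl differed by a median of 1.51-fold, and 56 of these 70 members stayed within 2-fold. Of the 7 untested members, 5 were listed at 0 in every library (Nxf3, Nxf5, Nxf7, Rexo1l1-ps1 and 1700009N14Rikl) and Nxf2 and Rasl2-9 were below 0.1 FPKM. The nucleolus term of the gene ontology was attached to 44 of the 78 members.

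Fbl (GeneID 292747) was measured at 32.5, 26.9 and 27.5 FPKM in Con., at 59.6, 70.1 and 33.3 FPKM in PTZ and at 22.0 and 25.7 FPKM in Q808. PTZ-1 and PTZ-2 stood far above the rest, PTZ-3 was only just above the highest Con. library, and both Q808 libraries lay below every Con. library. On the scale of log2(FPKM + 0.1), which is used for all differences here, the PTZ mean of Fbl exceeded that of Con. by 0.84 and that of Q808 by 1.12. These values chose the pathway and nothing is read from them. The study also measured Fbl by quantitative PCR and does not list it among the genes significantly higher in PTZ by that method. For Q808 against PTZ it lists Fbl among genes that decreased. It also names Fbl among genes whose quantitative PCR change was opposite to the sequencing. Within the striatum-poor libraries the PTZ to Con. difference of Fbl was 1.12 and within the striatum-rich pair it was 0.28. The Q808 to PTZ difference was −1.33 and −0.59 in the same order, so the direction was shared and the size was not, and the part of the tissue in this was not tested. The mean log2 level of 6 immature neuron markers was 0.61 to 1.33 in Con., 1.40 to 2.01 in PTZ and 0.12 and 1.38 in Q808. It was highest in PTZ, but PTZ-2 (1.40) and PTZ-3 (1.44) were only just above Con.-1 (1.33) and Q808-2 (1.38). By summed FPKM, PTZ-1 had 39.0, while PTZ-2 (28.6) and PTZ-3 (27.1) lay below Con.-1 (28.8). Of the marker lists the immature neuron list was the most correlated with Fbl (0.68). It holds Sox11, reported by the study as higher in PTZ and lower in Q808. Levels of 6 choroid plexus markers were 4.32, 4.49 and 0.67 in Con., 2.15, 1.61 and 2.88 in PTZ, and 1.41 and 6.02 in Q808. The part of either list in the values of Fbl was not tested.

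The protein partners of Fbl come first, because the box C/D particle that holds fibrillarin also holds Nop56, Nop58 and Snu13. Nop56 and Nop58 are paired scaffold proteins, and Snu13 binds the kink-turn of the guide RNA. Nop58 (GeneID 60373) was measured at 17.0, 13.99 and 17.6 FPKM in Con., 19.9, 24.0 and 17.7 in PTZ, and 15.5 and 16.8 in Q808. All 3 PTZ libraries of Nop58 were above all others, although PTZ-3 exceeded the highest Con. library by less than the spread within Con. Its difference was 0.34 ± 0.17 (SE) in PTZ vs. Con. (95% interval −0.06 to 0.73) and −0.34 ± 0.19 in Q808 vs. PTZ (−0.81 to 0.13).

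Snu13 (GeneID 300092) was measured at 71.4, 83.7 and 69.6 FPKM in Con., 84.9, 122 and 77.7 in PTZ, and 61.0 and 71.8 in Q808. PTZ-2 was the only library far from the rest, the PTZ and Con. ranges overlapped, and both Q808 libraries were below every PTZ library. The difference was 0.32 ± 0.19 in PTZ vs. Con. (−0.13 to 0.77) and −0.49 ± 0.24 in Q808 vs. PTZ (−1.07 to 0.09). Reads of Snu13 can be shared with a copy whose symbol marks it as a pseudogene, Snu13-ps5, which was measured at 3.34, 0.909 and 2.67 FPKM in Con., 6.80, 8.04 and 4.02 in PTZ and 2.72 and 4.26 in Q808. The copy, named after its values were seen, was called higher in PTZ vs. Con. (1.53 ± 0.50, adjusted p = 0.999 by limma), while Snu13 was not. How such reads were divided is not given in the sources used here. In each library the copy was at most a small fraction of the Snu13 level.

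Nop56 (GeneID 362214) was measured at 46.5, 39.9 and 31.9 FPKM in Con., 46.5, 65.5 and 38.0 in PTZ, and 31.7 and 41.6 in Q808. Again PTZ-2 was highest, while PTZ-1 was level with Con.-1 and all groups overlapped. The difference was 0.32 ± 0.23 in PTZ vs. Con. (−0.23 to 0.87) and −0.42 ± 0.27 in Q808 vs. PTZ (−1.08 to 0.23). The 3 partners thus had estimates with the signs of Fbl at less than 1.5-fold, and over all libraries their intervals included 0 and in each case also reached past 1.5-fold. Same-numbered PTZ and Con. libraries deviated together, but the number is a label that states no pairing of rats. Both libraries numbered 3 were striatum-rich and those numbered 1 and 2 were striatum-poor, so the part of the number cannot be told apart from that of the tissue. PTZ was above Con. at 3 of 3 numbers for Nop58 and Snu13 and at 2 of 3 for Nop56. With the replicate number as a block the difference of Snu13 in PTZ vs. Con. was 0.32 ± 0.13. It passed an unadjusted p-value under 0.05 but not 1.5-fold (adjusted p = 0.785 by limma). The PTZ to Con. difference in the striatum-poor libraries and in the striatum-rich pair was 0.50 and 0.0066 for Nop58, 0.40 and 0.16 for Snu13, and 0.35 and 0.25 for Nop56. Without the striatum-rich libraries that of Nop58 passed an unadjusted p-value under 0.05, again below 1.5-fold (adjusted p = 0.166 by limma). In Q808 vs. PTZ the differences in the same order were −0.38 and −0.19, −0.50 and −0.35, and −0.41 and −0.26.

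Fbll1, a fibrillarin-like paralog, did not share the signs of Fbl in PTZ. It was measured at 28.2, 25.0 and 26.1 FPKM in Con., 21.9, 23.0 and 23.6 in PTZ, and 12.9 and 25.1 in Q808. Every PTZ library was below every Con. library, and the Q808 pair was split, with the striatum-rich Q808-1 lowest of all 8 libraries and Q808-2 within the Con. range. The difference was −0.21 ± 0.12 in PTZ vs. Con. and −0.34 ± 0.29 in Q808 vs. PTZ.

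**Figure D1:**
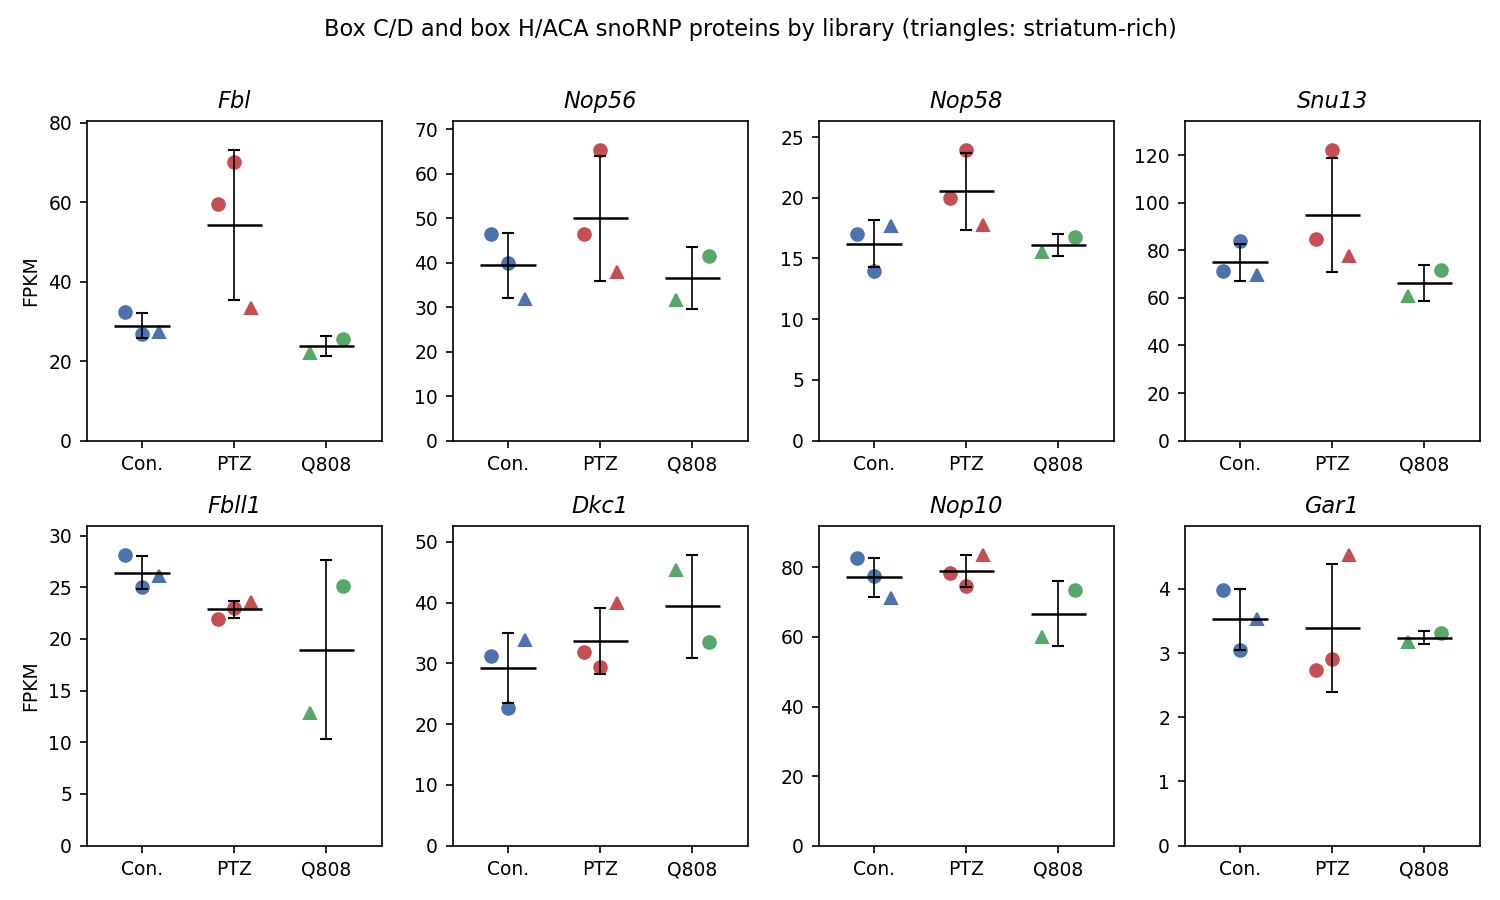
FPKM (vertical axis, from 0) of 8 box C/D and box H/ACA proteins by group. Each point is a library, triangles mark the striatum-rich libraries, and lines and bars give the mean and SD (n = 3, 3 and 2). Fbl reaches 59.6 and 70.1 FPKM in PTZ-1 and PTZ-2, the Nop56, Nop58 and Snu13 panels show a smaller excess carried mostly by PTZ-2, and the Dkc1, Nop10 and Gar1 panels show overlapping PTZ and Con. groups.

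The proteins of the box H/ACA particles, which carry out pseudouridylation, showed no shared direction. Dkc1, the pseudouridine synthase dyskerin, was measured at 31.2, 22.7 and 33.8 FPKM in Con., 31.8, 29.4 and 39.9 in PTZ, and 45.4 and 33.4 in Q808. Its levels overlapped between PTZ and Con. and were highest in Q808-1, with differences of 0.21 ± 0.19 in PTZ vs. Con. and 0.22 ± 0.22 in Q808 vs. PTZ. Gar1, a cofactor of dyskerin, differed by −0.08 ± 0.26 and −0.03 ± 0.32, and Nop10, which bridges the particle, by 0.03 ± 0.12 and −0.25 ± 0.17.

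Nhp2, the remaining core protein of this class, was a case apart. It was measured at 0.548, 13.5 and 0.0921 FPKM in Con., 0.422, 0.247 and 0.321 in PTZ, and 0.211 in Q808-1, and was listed at 0 in Q808-2. Con.-2 alone was high, and the other 7 libraries were all below 1 FPKM. The fitted differences of −1.49 ± 1.41, −1.27 ± 0.61 and −2.76 ± 1.82 for PTZ vs. Con., Q808 vs. PTZ and Q808 vs. Con. were uncertain. Without Con.-2 that of PTZ vs. Con. was 0.26, and that of Q808 vs. PTZ was nearer to 0 with a pseudocount of 1 and farther from it with one of 0.01. Nhp2 was the only member other than Fbl whose difference passed 1.5-fold, in any of the 3 comparisons.

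Across the whole pathway, 0 of the 70 members other than Fbl were called in PTZ vs. Con. at an unadjusted p-value under 0.05 with more than 1.5-fold change, against 2.53% of all genes tested. In Q808 vs. PTZ the count was again 0, against 1.92% of all genes, and in Q808 vs. Con. it was 0, against 3.46%. At an unadjusted p-value under 0.05 alone, limma's test also gave 0 members in each comparison, while 3.78%, 2.19% and 4.28% of all genes tested passed. For every member the Benjamini-Hochberg adjusted p-value of limma was at least 0.999 in the first comparison, 0.952 in the second and 0.901 in the third. The smallest p-values among the members were those of Utp6, a subunit of the UTP-B complex, in PTZ vs. Con. (Benjamini-Hochberg adjusted p = 0.999 by limma), Nxf1, the main messenger RNA exporter, in Q808 vs. PTZ (adjusted p = 0.952), and Utp4, a t-UTP subunit, in Q808 vs. Con. (adjusted p = 0.901). The 70 tests were precise to a median 95% half-width of 0.41, 0.57 and 0.47 on the log2 scale (1.33-, 1.48- and 1.39-fold) in the 3 comparisons. The whole interval lay within 1.5-fold for 39 members in PTZ vs. Con., 15 in Q808 vs. PTZ and 33 in Q808 vs. Con., so a change past 1.5-fold was outside the interval for these and inside it for the others.

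The centre of the pathway lay near 0. The median difference of the 70 members was −0.05 in PTZ vs. Con., beside −0.04 over all genes, and −0.02 in Q808 vs. PTZ, beside 0.10. In Q808 vs. Con. it was −0.05, beside 0.04. Of the 70 members, 25 were higher in PTZ than in Con. by their mean (43% of all genes), 34 were higher in Q808 than in PTZ (61.7% of all genes) and 23 were higher in Q808 than in Con. (55.3% of all genes). The comparisons share libraries, so these counts are not independent of one another.

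The libraries of 2 groups did not overlap for 7 of the 70 members in PTZ vs. Con. (9.15% of all genes), 8 in Q808 vs. PTZ (15.6%) and 8 in Q808 vs. Con. (20%). Higher levels were found for 2, 2 and 3 of these, against 4.11%, 10.6% and 13.3% of all genes, and lower levels for 5, 6 and 5, against 5.03%, 5.02% and 6.71%. Members that ordered the libraries as Fbl did were counted beside the share of all genes. The sequence of a called rise in PTZ and a called fall in Q808 was found for 0 of the 70 other members and for 36 of all genes tested (0.231%). Every PTZ library lay above every other library for Nop58 and for Gtpbp4, 2 of 70 members, against 1.14% of all genes, and every PTZ library lay below every other library for 0 members, against 1.59%. PTZ-1 and PTZ-2, in which Fbl was high, both lay above the other 6 libraries for 5 of 70 members, Csnk2a2, Snu13, Nop58, Utp18 and Xpo1, against 5.02% of all genes. With counts this small, the shares of the members were near those of all genes. By the means alone, 20 of 70 members had a PTZ mean above those of both other groups, beside 22.3% of all genes, and both comparisons use the same PTZ libraries.

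Gtpbp4, a GTPase of large-subunit assembly, showed how narrow such an ordering can be. It was measured at 4.21, 5.15 and 4.82 FPKM in Con., 5.57, 5.37 and 5.74 in PTZ, and 4.16 and 4.55 in Q808. The PTZ libraries were tightly grouped and above the rest, but Con.-2 came close to them. The differences were 0.23 ± 0.17 in PTZ vs. Con. and −0.35 ± 0.22 in Q808 vs. PTZ. They were alike in the striatum-poor and striatum-rich libraries for PTZ vs. Con. (0.23 and 0.25).

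**Figure D2:**
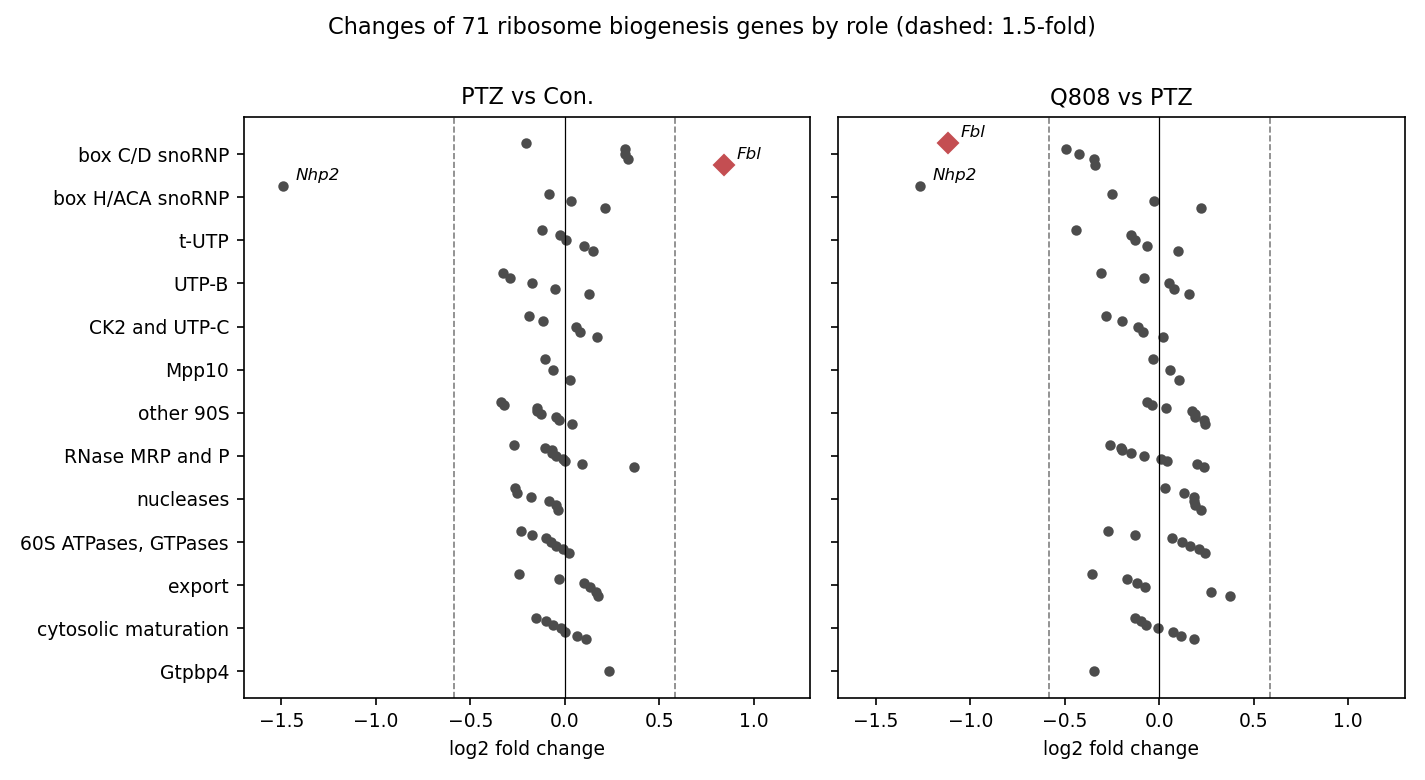
Difference on the log2 scale (horizontal axis) of 71 members, by role (vertical axis), for PTZ vs. Con. (left) and Q808 vs. PTZ (right). Each point is a gene, the diamond is Fbl, and dashed lines mark 1.5-fold. Only Fbl and Nhp2 lie past the dashed lines, and the other members lie between −0.34 and 0.36 on the left.

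The medians of the roles all stayed below 1.5-fold in either direction. The 4 other box C/D members had a median of 0.32 in PTZ vs. Con. and −0.38 in Q808 vs. PTZ. These were the largest medians in size among the groups of at least 3 genes. Of the 4, Fbll1 alone was lower in PTZ than in Con. (−0.21). Among the t-UTP, UTP-B and Mpp10 subcomplexes of the processome, 13 genes in all, medians lay between −0.17 and 0.0048 in PTZ vs. Con. and between −0.13 and 0.06 in Q808 vs. PTZ. Utp6 was measured at 10.9, 11.98 and 10.3 FPKM in Con., 9.02, 7.93 and 9.49 in PTZ, and 9.29 and 10.4 in Q808, so that its PTZ libraries were all below Con. The difference of Utp6 was −0.33 ± 0.15 in PTZ vs. Con. and 0.16 ± 0.20 in Q808 vs. PTZ, opposite in sign to Fbl.

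Utp4, by contrast, was low in Q808. It was measured at 10.98, 12.8 and 9.71 FPKM in Con., 11.7, 10.3 and 10.8 in PTZ, and 6.75 and 9.501 in Q808. Both Q808 libraries lay below all others, Q808-1 by much more than Q808-2, and the difference from PTZ was −0.44 ± 0.22. Heatr1 was at 0.131 to 0.440 FPKM in all libraries, too low for its differences of 0.15 ± 0.41 and −0.15 ± 0.57 to be read.

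The other processome and modification factors, 8 genes, had a median of −0.14 in PTZ vs. Con. and 0.18 in Q808 vs. PTZ. Nat10, the acetyltransferase of ribosomal RNA, was measured at 6.97, 5.65 and 6.31 FPKM in Con., 5.32, 3.55 and 6.41 in PTZ, and 5.59 and 6.13 in Q808. It was lowest in PTZ-2, the library in which Fbl was highest, and PTZ-3 was within the Con. range (−0.34 ± 0.25). Utp14a, a processome factor, had its lowest value in PTZ-2 as well (4.69 FPKM) and its highest in PTZ-3 (8.66 FPKM).

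The 6 nucleases all had lower means in PTZ than in Con. (−0.26 to −0.04) and higher means in Q808 than in PTZ (0.03 to 0.22), the opposite of Fbl, with 0 of 6 called in either comparison. Xrn2, the nuclear exonuclease, was measured at 16.6, 16.3 and 16.4 FPKM in Con., 13.2, 12.2 and 16.3 in PTZ, and 14.9 and 16.7 in Q808. PTZ-1 and PTZ-2 were the lowest libraries and PTZ-3 was at the Con. level, a mirror of Fbl over the same libraries (−0.25 ± 0.15). PTZ-2 was the lowest library for 27.6% of all genes. Xrn1, its cytosolic counterpart, was measured at 4.30, 4.72 and 5.45 FPKM in Con., 3.34, 3.24 and 5.85 in PTZ, and 4.62 and 4.72 in Q808. Drosha, the RNase of microRNA processing, was at 21.3 and 21.2 FPKM in PTZ-1 and PTZ-2 and between 23.5 and 26.5 FPKM elsewhere. PTZ-3 was the highest of the 8 libraries for both Xrn1 and Drosha. In the striatum-poor libraries and the striatum-rich pair, PTZ to Con. differences were −0.44 and 0.10 for Xrn1 and −0.18 and 0.10 for Drosha. They were −0.38 and −0.0052 for Xrn2, −0.38 and 0.22 for Rexo2, and 0.09 and −0.29 for Rexo1. In Q808 vs. PTZ the same order gave 0.51 and −0.34, 0.24 and −0.09, 0.39 and −0.13, 0.04 and −0.03, and 0.11 and 0.28. Most of these directions thus differed between the sets of libraries.

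RNase MRP and RNase P, which share their protein subunits and cleave ribosomal and transfer RNA precursors, had medians of −0.04 and −0.08 over 9 genes. Rpp25, one of these subunits, had the largest positive difference of any member other than Fbl in PTZ vs. Con., 0.36 ± 0.22, and was highest in PTZ-3 (7.50 FPKM). The large-subunit GTPases and AAA ATPases, 7 genes, had medians of −0.07 and 0.12, and Gnl2, a nucleolar GTPase, was at 21.1 and 21.5 FPKM in Q808 against 16.2 to 19.0 in Con. (0.26 ± 0.14 in Q808 vs. Con.). CK2 and the UTP-C complex, 5 genes, had medians of 0.06 and −0.11.

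In the export group, 6 tested genes had medians of 0.12 and −0.10. Nxf1 was measured at 59.8, 46.2 and 59.6 FPKM in Con., 47.99, 55.9 and 57.5 in PTZ, and 76.7 and 63.1 in Q808. Both Q808 libraries were above all others, with a difference of 0.37 ± 0.18 from PTZ. Ran was at 70.0 FPKM in Q808-1 and between 92.7 and 117 FPKM in the other 7 libraries (−0.36 ± 0.22 in Q808 vs. PTZ), and Nxt2, the cofactor of Nxf1, was lowest in PTZ-2 (1.55 FPKM). The 7 genes of cytosolic maturation, which include the endonuclease Nob1 and the Eif6-releasing pair Sbds and Efl1, had medians of −0.02 and −0.01 and a largest difference of 0.18 in either direction in these comparisons.

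As a description over the 8 libraries, which share treatment and tissue differences, the members most like Fbl were again its partners. Pearson correlations on log2(FPKM + 0.1) were 0.89 for Nop58, 0.85 for Snu13, 0.84 for Nop56, 0.81 for Csnk2a2, a catalytic subunit of casein kinase CK2, and 0.77 for Xpo1, the exporter of ribosomal subunits. Nop58 ranked 105 of 15592 genes by this measure, Snu13 173, Nop56 199, Csnk2a2 279 and Xpo1 357, so many genes outside the pathway were more like Fbl. The least like were Xrn2 (−0.84), Drosha (−0.82) and Xrn1 (−0.79). Correlations were positive for 26 of the 70 members and negative for 44, with a median of −0.31, and over all 15592 genes other than Fbl 34.0% were positive, with a median of −0.27. Csnk2a2 was measured at 13.8, 14.6 and 13.7 FPKM in Con., 16.0, 18.5 and 13.2 in PTZ, and 11.1 and 15.2 in Q808, and Xpo1 at 23.9, 26.7 and 26.0, then 28.5, 34.9 and 23.5, then 24.2 and 26.6 FPKM. For both genes PTZ-3 lay below every Con. library, and the differences of 0.17 and 0.16 in PTZ vs. Con. were smaller than their spread.

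**Figure D3:**
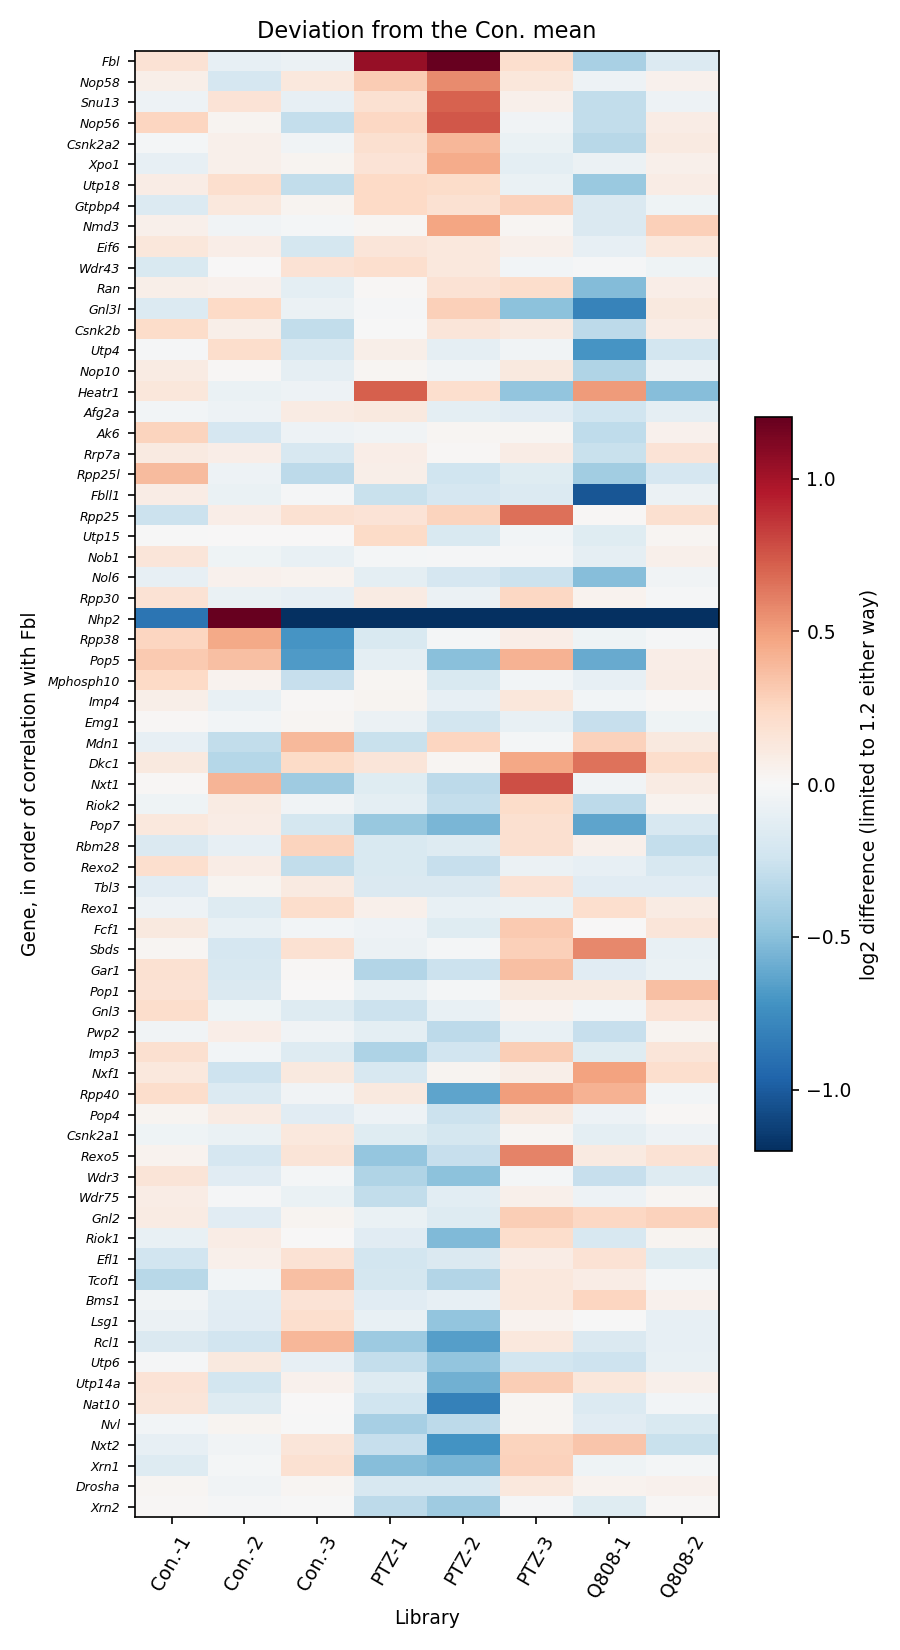
Level of each of the 71 tested members (vertical axis, ordered by correlation with Fbl from the highest down) in each library (horizontal axis), as its log2 difference from the Con. mean, with colours limited to 1.2 either way. The top rows, from Fbl to Utp18, are red in PTZ-1 and PTZ-2, the bottom rows are blue in the same libraries, and the PTZ-3 column is mostly pale or red at the bottom.

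PTZ-3 was the highest library for 22 of the 70 members other than Fbl (31.4%, against 19.3% of all genes), and PTZ-2 and Q808-1 were each the lowest for 21 (30%, against 27.6% and 18.5% of all genes). Over all genes tested the mean log2 level was also highest in PTZ-3 (2.62) and lowest in PTZ-2 (2.37). Relative to that mean, the members lay lowest in the 2 Q808 libraries, at 0.857 and 0.907 above it, against 0.986 to 1.13 in the 6 Con. and PTZ libraries. Without the 3 striatum-rich libraries, 2 members were called in PTZ vs. Con., both of them lower and both subunits of RNase MRP and P, against 9.97% of all genes in that fit. Pop5 was at 23.9 and 24.7 FPKM in the 2 Con. libraries and 17.7 and 13.6 in the 2 PTZ libraries (−0.65, adjusted p = 0.113 by limma), and Pop7 at 28.5 and 27.7 against 19.0 and 17.8 (−0.61, adjusted p = 0.0560). In the striatum-rich pair both genes went the other way, with Pop5 at 11.96 FPKM in Con.-3 and 25.6 in PTZ-3 and Pop7 at 22.4 and 29.9. In Q808 vs. PTZ 0 members were called without these libraries, against 10.7% of all genes, and in Q808 vs. Con. 1 was called, Nhp2, against 4.61%.

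The Q808 group rested on 2 libraries that differed from each other. With Q808-2 left out, so that the striatum-rich Q808-1 alone stood for the group and was assumed to vary like the others, Fbll1 (−0.82), Ran (−0.66) and Utp4 (−0.68) were called lower than in PTZ, 3 of 70 members against 8.3% of all genes. Against Con., Fbll1 (−1.03), Gnl3l (−0.80), Pop7 (−0.64) and Utp4 (−0.71) were called, 4 of 70 against 11.6%. With Q808-1 left out these calls were absent, and 1 member was called in Q808 vs. PTZ, Nhp2 (−2.08, 1 of 70 against 2.09% of all genes), and 0 of 70 against Con. (2.23% of all genes). Without Con.-3, Nhp2 was called in Q808 vs. Con. (−4.08, 1 of 70 against 4.55%).

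Promoters were examined because Nop58, Snu13 and Nop56 were the members most correlated with Fbl, whose values chose the pathway. Fbll1, also of the box C/D group, had a correlation of 0.21 with Fbl. RefSeq windows of the GRCr8 assembly, from 250 bases before to 50 after the start, were held for 65 of the 78 members, and 9 short motifs were counted on either strand, of which the following 2 were picked after all shares were seen. The E-box CACGTG, the site of Myc and related factors, was found in 18 of 65 members (27.7%), against 8.94% of the windows of 12178 other tested genes and 6.65% of all 27457 windows. The ETS-type site ACTTCCG or its reverse complement CGGAAGT was found in 24 of 65 (36.9%), against 11.7% and 6.70%. These are counts of letters, not of bound factors.

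The windows of Fbl and of the partners that hold either motif are shown with these letters in capitals, each from 5′ to 3′ on its own strand. Fbl lies at chr1:92597157-92597456 on the plus strand, Nop58 at chr9:68614824-68615123 on the plus strand and Snu13 at chr7:115450959-115451258 on the minus strand. Fbl holds an ETS site whose first base is 67 bases before the start and an E-box whose first base is base 22 after it. Nop58 holds an ETS site 74 bases before the start, Snu13 one at base 16 after it, and the Nop56 window, which lies inside the annotated span of the gene so that its start may be that of an internal transcript, holds neither motif.
Fbl: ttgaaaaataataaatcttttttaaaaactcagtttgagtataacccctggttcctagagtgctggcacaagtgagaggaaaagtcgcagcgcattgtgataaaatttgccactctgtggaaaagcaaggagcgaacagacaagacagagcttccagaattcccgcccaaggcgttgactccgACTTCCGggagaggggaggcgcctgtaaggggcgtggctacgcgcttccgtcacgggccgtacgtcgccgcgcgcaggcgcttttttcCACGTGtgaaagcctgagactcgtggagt
Nop58: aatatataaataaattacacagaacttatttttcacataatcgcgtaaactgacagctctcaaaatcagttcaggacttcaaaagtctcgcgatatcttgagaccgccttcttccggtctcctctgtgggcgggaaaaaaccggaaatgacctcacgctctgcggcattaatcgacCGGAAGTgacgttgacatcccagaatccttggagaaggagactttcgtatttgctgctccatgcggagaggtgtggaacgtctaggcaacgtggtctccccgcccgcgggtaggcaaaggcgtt
Snu13: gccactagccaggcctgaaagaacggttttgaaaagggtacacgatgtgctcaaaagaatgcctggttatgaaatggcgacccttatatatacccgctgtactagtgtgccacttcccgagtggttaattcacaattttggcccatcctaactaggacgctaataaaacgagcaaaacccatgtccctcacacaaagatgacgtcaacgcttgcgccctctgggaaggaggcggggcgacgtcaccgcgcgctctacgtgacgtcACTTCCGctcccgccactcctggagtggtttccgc

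Nucleolar genes outside the pathway were taken from 4 lists of 138 tested genes in all. In PTZ vs. Con. 1 of the 138 was called (0.725%, against 2.53% of all genes), in Q808 vs. PTZ 0 (against 1.92%) and at an unadjusted p-value under 0.05 also 0, and in Q808 vs. Con. 2 (1.45%, against 3.46%). Their median differences were −0.09, 0.03 and −0.07. None of the 138 was called higher in PTZ and lower in Q808, and every PTZ library lay above every other library for 2, Eif4ebp1 and the helicase gene Ddx56. With the replicate number as a block, 3 were called in PTZ vs. Con., Eif4ebp1, Mycl and Mycn (against 3.95% of all genes). The block gave 9 in Q808 vs. PTZ (against 12.1%) and 2 in Q808 vs. Con. (against 6.9%). The number is only a label in every comparison, and in the last 2 same-numbered libraries did not all deviate together. The counts also moved with single libraries. Without PTZ-3, 7 genes of the lists were called in PTZ vs. Con. and 9 in Q808 vs. PTZ (7.31% and 10.1% of all genes), and without Q808-2, 12 in Q808 vs. Con. (11.6% of all genes). The 2 calls in Q808 vs. Con. fell to 0 without Con.-1, Con.-2 or Q808-1. Without all 3 striatum-rich libraries the counts were 11, 7 and 0, against 9.97%, 10.7% and 4.61% of all genes.

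Among 16 genes of RNA polymerase I and its factors, 0 were called in any comparison, with medians of −0.08, 0.02 and −0.05, and 0 passed an unadjusted p-value under 0.05. Ubtf, the architectural factor of ribosomal DNA, came closest to the ordering of Fbl. It was measured at 23.6, 25.1 and 30.7 FPKM in Con., 37.3, 37.5 and 23.8 in PTZ, and 23.5 and 23.9 in Q808. As for Fbl, PTZ-1 and PTZ-2 stood above all other libraries, while PTZ-3 lay within the Con. range. Over all libraries the differences were 0.29 ± 0.21 in PTZ vs. Con. and −0.44 ± 0.24 in Q808 vs. PTZ, and without the striatum-rich libraries they were 0.62 and −0.64, called in both.

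The other genes of this list that are named here did not resemble Fbl. Rrn3, the initiation factor of RNA polymerase I, was measured at 5.07, 5.99 and 6.26 FPKM in Con., 4.62, 4.19 and 4.32 in PTZ, and 3.34 and 5.53 in Q808. All PTZ libraries were below all Con. libraries (−0.39 ± 0.18). The catalytic subunits Polr1a and Polr1b differed by −0.29 ± 0.23 and −0.13 ± 0.20 in PTZ vs. Con., the sign opposite to Fbl.

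Among 93 assembly factors, 0 were called in PTZ vs. Con. and in Q808 vs. PTZ, and 2 in Q808 vs. Con. Ncl, the abundant nucleolar protein nucleolin, was at 147, 145 and 148 FPKM in Con., 147, 140 and 165 in PTZ, and 145 and 148 in Q808. Npm1, nucleophosmin of the granular component, was at 101, 101 and 86.8 FPKM, then 96.7, 86.2 and 120, then 92.5 and 98.7. Neither gene varied with treatment beyond its spread (0.04 ± 0.12 and 0.06 ± 0.16 in PTZ vs. Con.), and PTZ-3 was the highest library for both.

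The called assembly factors were Nol8 (−1.10 ± 0.35 in Q808 vs. Con., adjusted p = 0.901 by limma), which stayed below 1 FPKM in every library, and Zcchc4, a methyltransferase of ribosomal RNA (0.75 ± 0.24, adjusted p = 0.901 by limma). Zcchc4 was measured at 1.60, 1.64 and 1.72 FPKM in Con., 1.98, 1.15 and 1.84 in PTZ, and 3.25 and 2.48 in Q808, so both Q808 libraries stood above the others. Both calls were lost when any of Con.-1, Con.-2 or Q808-1 was left out, and that of Nol8 also without Q808-2. The 14 exosome genes had 0 calls and medians of −0.11, −0.03 and −0.14.

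Of 15 growth regulators, Eif4ebp1, the translation repressor controlled by mTOR, was the single call in PTZ vs. Con., a call that was lost without the striatum-rich libraries (0.55). It was measured at 7.89, 6.92 and 6.36 FPKM in Con., 11.5, 10.3 and 12.3 in PTZ, and 9.19 and 8.73 in Q808. Here all 3 PTZ libraries, PTZ-3 included, were above all others, and the difference was 0.68 ± 0.16 (adjusted p = 0.999 by limma). In Q808 vs. PTZ it was −0.34 ± 0.19. Myc, the transcription factor that drives many ribosome biogenesis genes, was at 2.49, 2.20 and 2.48 FPKM in Con., 2.11, 3.16 and 2.35 in PTZ, and 1.31 and 3.09 in Q808, with a Q808 pair spread wider than any difference between groups.

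**Figure D4:**
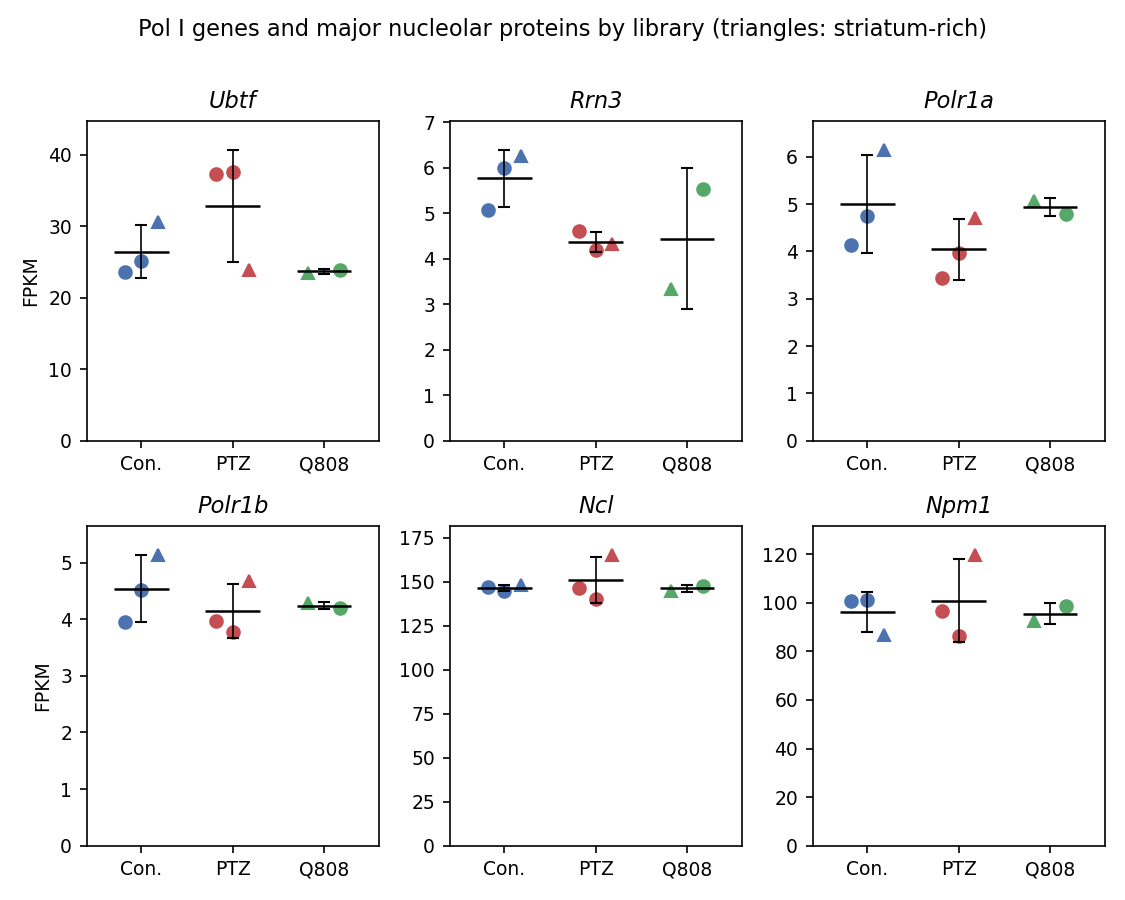
FPKM (vertical axis, from 0) of 4 genes of RNA polymerase I transcription and of Ncl and Npm1 by group. Each point is a library, triangles mark the striatum-rich libraries, and lines and bars give the mean and SD (n = 3, 3 and 2). Ubtf is at 37.3 and 37.5 FPKM in PTZ-1 and PTZ-2 and at 23.5 to 30.7 FPKM elsewhere, and the other 5 genes show no such pair.

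The 711 tested genes outside the pathway that carry the nucleolus term were counted as well, a list added after the other values were seen. Of these, 16 were called in PTZ vs. Con. (2.25%), 8 in Q808 vs. PTZ (1.13%) and 13 in Q808 vs. Con. (1.83%), each a smaller share than among all genes. The rise and fall of Fbl, as calls, were shared by 4 of the 711 (0.563%, against 0.231% of all genes), Doc2a, Fbxw7, Mad2l1bp and Pou5f1. Every PTZ library lay above every other library for 8 of the 711, against 1.14% of all genes. Fbxw7, a ubiquitin ligase subunit, had differences of 0.83 and −0.63 (adjusted p = 0.999 and 0.952 by limma), and Mad2l1bp, a mitotic checkpoint regulator, 0.72 and −0.89 (adjusted p = 0.999 and 0.952).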

How the data were processed

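RNA of the hippocampus of 8 rats was sequenced, with 1 library per rat (3 Con., 3 PTZ, 2 Q808). Reads were trimmed with Trimmomatic by the authors, who deposited FPKM per gene from Cufflinks. Bowtie2, HISAT2, StringTie and SAMtools are also listed in the submitters' processing notes, without roles. The genome build is not given in the sources used here, and the depth cannot be read from FPKM. HTSeq counts and DESeq, which the authors used for testing, were not used here. Each group was taken from the sample labels.

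Values were analysed as log2(FPKM + 0.1) for 15593 genes with a mean of at least 0.1 FPKM, using the empirical Bayes fit of limma 3.58.1 (R 4.3.3) with a trend and only the groups compared. Tables and plots were made in Python 3.11.15 (pandas 2.3.3, numpy 2.4.6, matplotlib 3.10.9, scipy 1.17.1). Calls were made at an unadjusted p under 0.05 with more than 1.5-fold change, the limits of the study as read here, and p-values were adjusted over all genes by Benjamini-Hochberg. The fit without the striatum-rich libraries held all 3 groups. The fit was also run on simulated data with independent noise and 200 genes changed 3-fold. It called 186, 185 and 183 of these in PTZ vs. Con., Q808 vs. PTZ and Q808 vs. Con. Of the unchanged genes it called 3.53%, 3.86% and 3.89%. Smaller changes and tissue differences shared by genes were not simulated, so the run does not bear on them. FPKM of a gene is length-scaled, so levels of genes can be compared. A difference in log2(FPKM + 0.1) understates changes of genes with low levels.

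The members, role lists, outside lists, marker lists and alternatives were chosen with earlier results of these data known. Named genes were Fbl, the other small nucleolar ribonucleoprotein members, every called member, the 3 largest differences each way, the 3 highest and 3 lowest levels, the 5 most and 3 least correlated with Fbl, members with PTZ above all other libraries, called genes of the outside lists, and Npm1, Ncl, Ubtf, Polr1a, Polr1b, Rrn3 and Myc. Other genes were named after their values were seen. Symbols came from the RefSeq table of GRCr8, which matched 20633 genes and all 78 members.

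Replicate numbers came from the labels. Same-numbered PTZ and Con. libraries deviated together (r = 0.21, 0.30 and 0.42 over genes), so the block by number was kept as an alternative for that comparison. No pairing of rats by number is given. The libraries numbered 3, with r = 0.42, were both striatum-rich, and those numbered 1 and 2 were striatum-poor in both groups. The part of the number in these r values therefore cannot be told apart from that of the tissue. Of the other marker lists, the mean log2 levels over libraries were 6.36 to 7.03 for astrocyte, 3.73 to 4.97 for microglia, 3.03 to 4.29 for endothelium, 0.67 to 6.02 for choroid plexus, 1.58 to 3.83 for erythroid, −0.99 to 0.63 for proliferating and 0.12 to 2.01 for immature neuron markers.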

Additional observations from a re-analysis of the deposited data

How the results depend on the processing

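Over 16 or 17 alternatives the difference of Fbl stayed between 0.62 and 1.16 in PTZ vs. Con., −1.44 and −0.90 in Q808 vs. PTZ, and −0.39 and −0.17 in Q808 vs. Con. The count of members other than Fbl with the called rise and fall was 0 under every alternative. Of 173 recomputed counts and medians, 136 kept their value within 1.5 times or 1 SD between libraries (0.085), and 37 moved. Members called in PTZ vs. Con. (0) became 1 with all genes (Nxf2) and 2 without the striatum-rich libraries, and leaving out 1 library each gave 0 to 0. In Q808 vs. PTZ (0) they became 1 with the striatum set as a block and 0 to 3 with 1 library left out. In Q808 vs. Con. (0) they became 1 without the striatum-rich libraries and 0 to 4 with 1 library left out.

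With the replicate block, 2 members were called in Q808 vs. PTZ, Snu13 (−0.62) and Nop56 (−0.60), with adjusted p = 0.385 for both by limma, against 12.1% of all genes. In Q808 vs. Con. the block gave 2, Nhp2 and Pop5, against 6.9%. In these comparisons the libraries share only a number (r = −0.30 and 0.32, −0.38 and 0.53), so the block is no pairing. In PTZ vs. Con. it changed no call among members, and there too the number is a label that states no pairing.

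Genes of the outside lists called in PTZ vs. Con. (1) became 0 at 2-fold, 3 with the replicate block, 3 with the striatum block, 11 without the striatum-rich libraries and 1 to 7 with 1 library left out. In Q808 vs. PTZ (0) they became 2 with all groups in 1 fit, 9 with the replicate block, 1 with the striatum block, 7 without the striatum-rich libraries and 0 to 9 with 1 library left out. In Q808 vs. Con. (2) they became 1 at 2-fold, 0 with a pseudocount of 1, 1 at a mean of at least 1 FPKM, 1 with all groups in 1 fit, 0 without the striatum-rich libraries and 0 to 12 with 1 library left out. PTZ-3 gave the highest count in the first comparison and in the second, and Q808-2 in the third. The median difference of members in Q808 vs. PTZ (−0.02) became −0.11 with median ratio scaling, 0.079 with the replicate block, 0.12 without the striatum-rich libraries and −0.071 to 0.079 with 1 library left out. The cause of these shifts was not tested. With 2 to 3 rats a group, small changes of single genes were not resolvable.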
